A study of Rattus norvegicus with 8 samples.

Results

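Among the abundant circular RNAs (circRNAs) of rat cerebral cortex, 590 of 5901 were set apart by how much their level differed from animal to animal within a group. A circRNA counted as abundant when it was listed above 0 in all 8 libraries at a mean of at least 0.13 RPM, the number of junction reads scaled to the library's total. This left 5901 of the 51995 circRNAs in the table (11.3%). For each of them the coefficient of variation (CV, the sample SD divided by the mean) was computed within the 4 sham animals and within the 4 injured animals. The 590 circRNAs were chosen by the average of these 2 CVs, as the 10% with the highest values, so their wide spread is given as a description, with no test. All 590 were entered in the tests below, since being listed in all libraries put each past the filter on low values.

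Total RNA came from 8 rats, 1 library each: 4 were sham animals and 4 had a moderate traumatic brain injury (mTBI). With 1 library per animal, differences between animals cannot be told apart from differences in dissection or library preparation. In the injured animals the cortex around the injury on the same side was taken 24 h after injury, and in the sham animals the cortex at the same site. All animals were perfused with cold saline, and all libraries were stranded total RNA depleted of ribosomal RNA, with no step labelled as removing linear RNA. The sources used here do not give the strain, sex and age of the rats or the injury method, and no genotype or drug is labelled.

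A circRNA forms by back-splicing, in which the end of a downstream exon is joined to the start of an upstream one. The closed ring has no free ends, resists exonucleases and can last longer than the linear mRNA of its gene, and brain is rich in such rings. One gene can give several circRNAs that share one splice site and differ in the other, so circRNAs of a strand that shared an exact start or end were joined here into a locus. The table names no genes, and circRNAs are given by position on Rnor_6.0. Because the samples are pieces of tissue, fewer cells of a type and less RNA per cell cannot be told apart.

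The 8 libraries summed to 4966 to 5874 RPM over all circRNAs, or 384910 to 452692 junction reads if the smallest listed value is read as 2 reads. Each listed 21508 to 23713 circRNAs. The 590 variable circRNAs summed to 122 to 188 RPM per library, lowest in mTBI 1 and highest in mTBI 4. They were highest in mTBI 4 in 119 cases (20.2%), against 19.5% of the other 5311 abundant circRNAs, and lowest in mTBI 2 in 112 cases. Every library was the highest for at least 36 of them.

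The average CV of the 590 ran from 0.454 to 1.25, with a median of 0.519, against a median of 0.256 in the other abundant circRNAs. The last ones inside were chr6:48773612-48780202 (plus strand, 0.4542) and chr3:128756800-128761750 (plus strand, 0.4541). The first ones outside were chr5:160035639-160043135 (minus strand, 0.4538) and chr20:46003858-46023669 (minus strand, 0.4537). The values thus form a continuum, and membership near its lower bound separates circRNAs of almost equal spread. Taking the upper 5% keeps 295 of the 590, and 512 (86.8%) were inside when each library was first scaled to the same circRNA total.

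**Figure D1:**
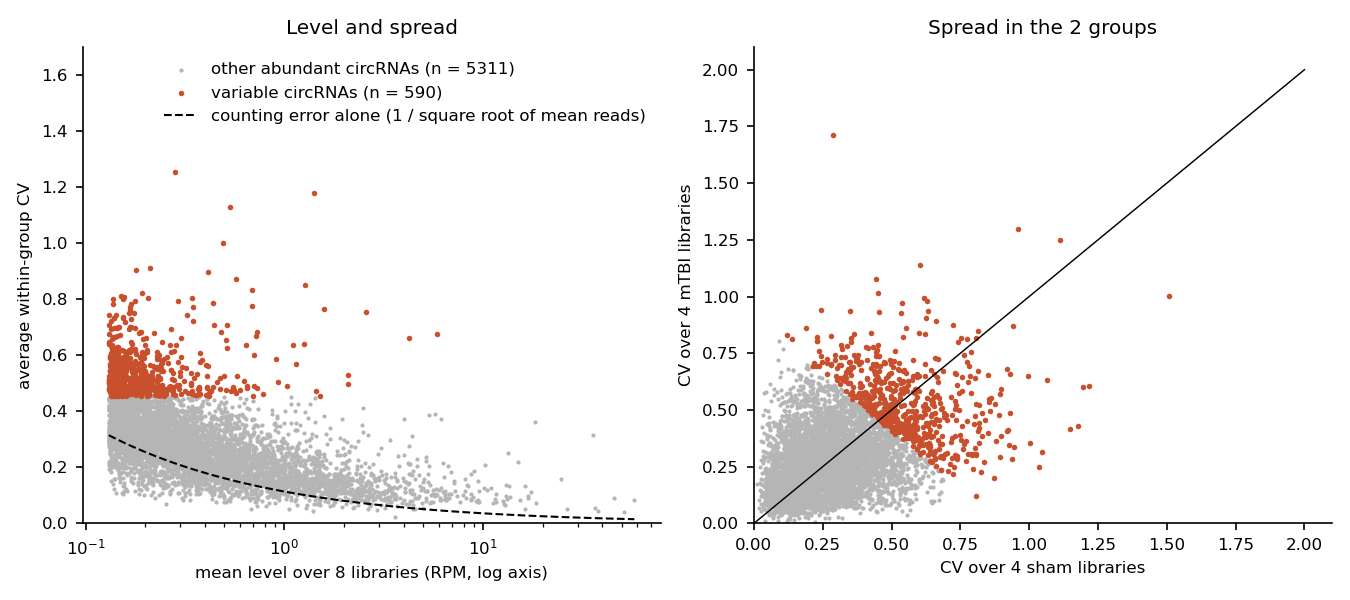
Left, average within-group CV of each of the 5901 abundant circRNAs (vertical axis) against its mean over 8 libraries in RPM (horizontal axis, log scale), with the 590 variable ones in orange and a dashed line for the CV that counting reads alone would give. Right, CV in mTBI against CV in sham, with the line of equal values; the variable circRNAs crowd at low levels, where 474 of them lie under 0.26 RPM, and fall on both sides of that line.

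Most of the variable circRNAs were near the lower level limit, where counting error is large. Their median mean level was 0.172 RPM against 0.330 RPM in the others, and 474 (80.3%) were under 0.26 RPM against 38.7% of the others. They made up 18.8% of the abundant circRNAs at 0.13 to 0.26 RPM, and 1.56% of those above 1.04 RPM. On the reading of 2 reads as the smallest value, their mean was 13.3 reads in the median case, for which counting alone gives a median CV of 0.274. The variance in reads divided by the mean, which is 1 for counting error alone, had a median of 4.11 in the variable circRNAs and 1.97 in the others. It reached 5 or more in 204 of the 590 (34.6%) and in 446 of the 5311 others (8.40%). In 153 of the 590 (25.9%) at least 1 library was at 3 reads or fewer, against 1.11% of the others. The ratio of variance to mean and the low libraries rest on the same within-group spread that chose the 590. Their gaps to the others were thus built in by the rule and are a description only.

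The widest spread belonged to chr1:195833189-195843637 (minus strand, 10449 bases, average CV 1.25). It stood at 0.116, 1.02, 0.0518 and 0.0645 RPM in sham 1 to 4, and at 0.181, 0.0515, 0.156 and 0.623 RPM in mTBI 1 to 4. Sham 2 and mTBI 4 were high and the other animals were low, so each group held a single high animal. Without sham 2 the average CV was 0.721, and without mTBI 4 it was 1.02. The second widest, described below, was at 1.05 to 1.43 with any 1 library left out, so the order of these 2 depended on which animals were included. The circRNA chr1:195805819-195840151 of the same locus was also highest in sham 2 and mTBI 4, at 3.57 and 3.28 RPM. It was listed at 0 in sham 1 and in mTBI 1 to 3 and at 2.37 and 1.80 RPM in sham 3 and 4, so it was not abundant by the rule used here. By contrast, chr1:195833189-195866944, which shares the start of the variable circRNA, was at 0.498 RPM in sham 2 and listed at 0 in mTBI 4.

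The second widest was the shortest of all 590, chrX:119152559-119152714 (plus strand, 156 bases, average CV 1.18). Its values were 3.04, 0.0786, 0.104 and 3.85 RPM in the sham animals and 1.26, 0.0515, 2.89 and 0.0779 RPM in the injured ones. The 8 animals fell apart into 4 at 0.104 RPM or less and 4 at 1.26 RPM or more, with a 12.2-fold step between them and both groups present on each side. It made up 96.6% of its locus, which held 2 circRNAs.

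A similar pattern appeared in chr2:224802843-224803455 (minus strand, 613 bases, average CV 0.850), which was picked out after its values were seen. It stood at 1.86, 0.0524, 1.97 and 0.103 RPM in the sham animals and at 1.73, 2.02, 0.13 and 2.37 RPM in the injured ones. Sham 2, sham 4 and mTBI 3 lay below a 13.3-fold step and the other 5 animals above it. The circRNA chr2:224794357-224803455, which ends at the same base, did not follow: it was at 2.95, 2.14, 3.07 and 2.17 RPM in the sham animals and 2.66, 2.55, 2.64 and 2.27 RPM in the injured ones, with an average CV of 0.132. A further circRNA with that end, chr2:224777973-224803455, had an average CV of 0.0827.

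On chromosome 5, chr5:101695303-101697843 (plus strand, average CV 1.0) stood at 0.181, 0.105, 0.220 and 0.206 RPM in the sham animals and at 0.194, 0.0515, 0.104 and 2.85 RPM in the injured ones. One animal, mTBI 4, lay above a 13-fold step, and the other 7 stood at 0.0515 to 0.220 RPM. The rest of its locus varied little, with an average CV of 0.115, and the member that shares its end, chr5:101648419-101697843, was at 0.298 RPM in mTBI 4 and 0.0776 to 0.399 RPM elsewhere. The minus-strand circRNA chr5:90040536-90063651 (average CV 1.13) was high in 1 animal of each group, with sham 4 at 1.29 RPM and mTBI 4 at 1.58 RPM, against 0.13 to 0.354 RPM in the other 6. Without mTBI 4 the average CV was 0.649 for this circRNA and 0.453 for chr5:101695303-101697843.

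The remaining 4 of the 8 widest showed other sets of animals. On chromosome 7, chr7:70526572-70526847 (minus strand, 276 bases, average CV 0.872) was at 0.556, 0.878, 0.582 and 0.103 RPM in the sham animals and 0.722, 1.56, 0.0782 and 0.0908 RPM in the injured ones. Sham 4, mTBI 3 and mTBI 4 were thus low, by a step of 5.39-fold. The minus-strand circRNA chr7:27119420-27120135 (716 bases, average CV 0.905) was highest in sham 1, with 0.388 RPM, and in mTBI 4, with 0.441 RPM, with 0.0645 to 0.193 RPM in the other animals. In the plus-strand circRNA chr5:129448885-129528945 (average CV 0.898) sham 1 alone was high, at 1.76 RPM. Without sham 1 the average CV of these last 2 was 0.595 and 0.423. Among the longest of the 590 was the plus-strand chr19:34249087-34346224 (97138 bases, average CV 0.912), highest in sham 3 at 0.466 RPM and mTBI 3 at 0.417 RPM and lowest in sham 1 at 0.0258 RPM. It is 1 of 71 circRNAs of a locus whose other circRNAs together held 17.3 RPM with an average CV of 0.0545, and it gave 1.21% of that locus.

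**Figure D2:**
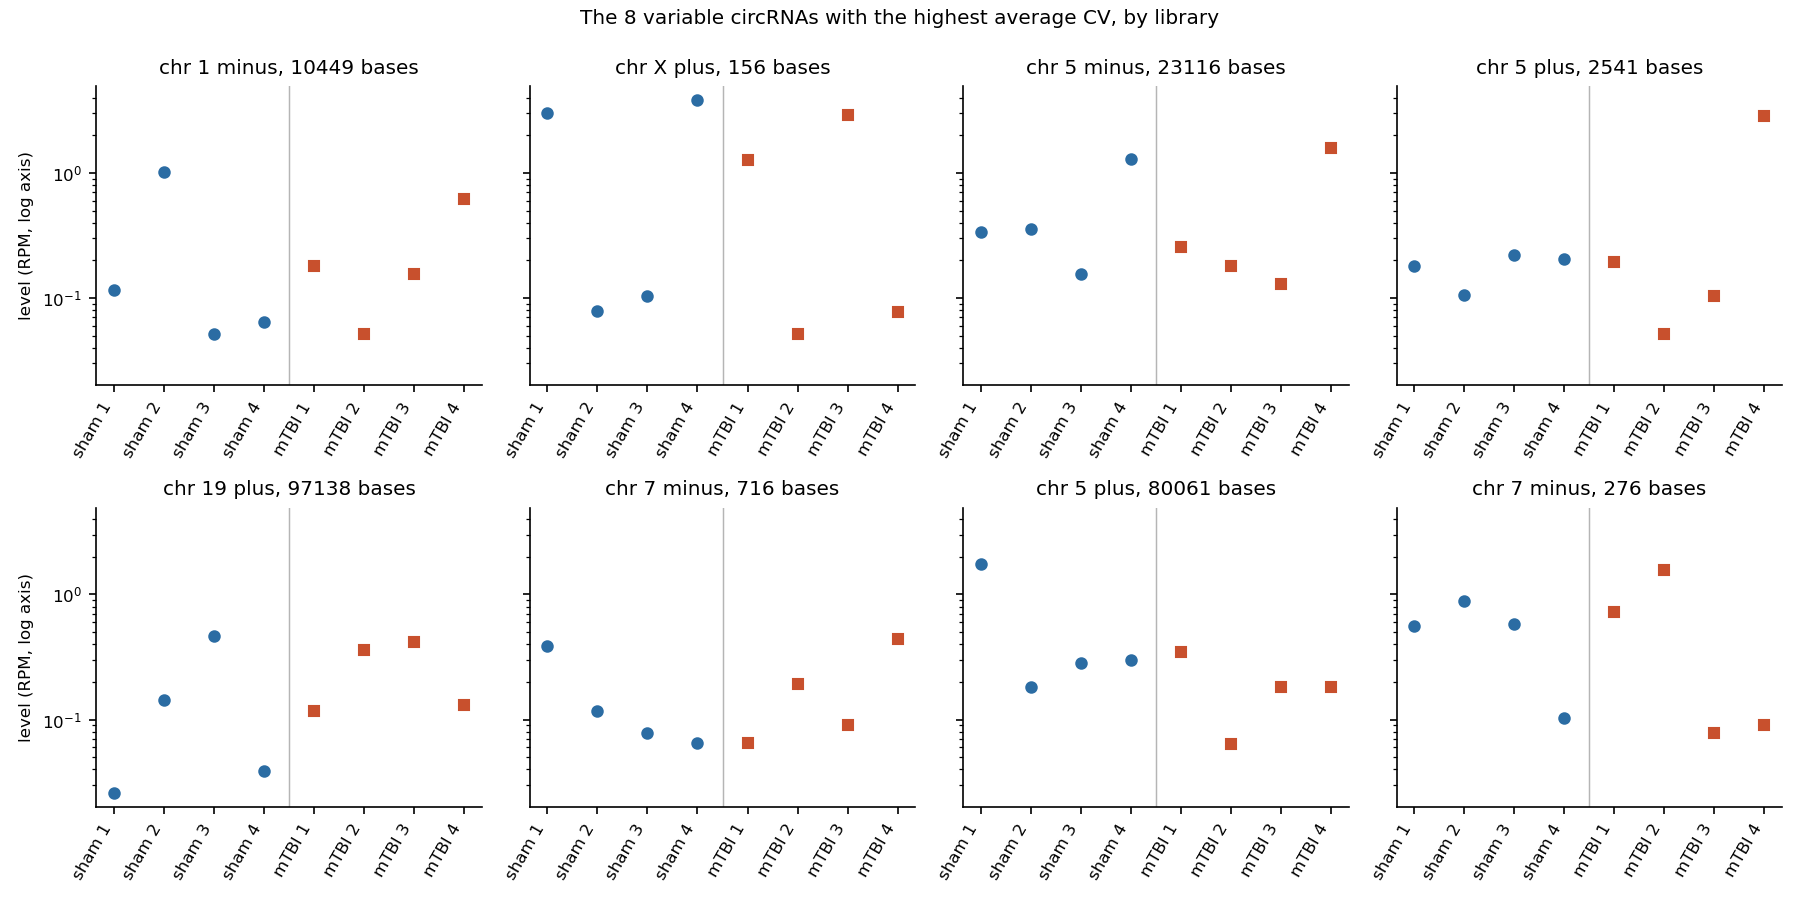
RPM (vertical axis, log scale) of the 8 circRNAs with the highest average CV in each of the 4 sham and 4 mTBI libraries, 1 point per library. High libraries occur in both groups, and they differ from one circRNA to the next, as with mTBI 4 at 2.85 RPM in chr5:101695303-101697843 and sham 1 at 1.76 RPM in chr5:129448885-129528945.

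A jump of at least 3-fold between neighbouring values, once the 8 libraries were sorted, occurred in 55 of the 590 (9.32%) and in 45 of the 5311 others (0.847%). A jump within a group adds to the spread that chose the 590, so this gap describes the choice. In 30 of the 55 a single library lay below the jump, and in 28 of these 30 that library was at 3 reads or fewer. In 4 a single library lay above it. The other 21 had 2 to 6 libraries below, in 19 different sets of animals, so no fixed set of animals was low throughout. One of these 21, picked out after its values were seen, was chr10:27347096-27363531 (minus strand), at 0.207, 0.210, 1.27 and 1.01 RPM in the sham animals and 0.903, 0.244, 0.208 and 1.47 RPM in the injured ones, with 4 animals on each side of a 3.70-fold step.

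The highest levels among the 590 came from a locus at the distal end of chromosome 1. The plus-strand circRNA chr1:278679022-278749829 stood at 0.788, 4.59, 9.76 and 4.80 RPM in the sham animals and at 0.581, 9.27, 8.55 and 8.93 RPM in the injured ones (average CV 0.675). Sham 1 and mTBI 1 lay below a 5.82-fold step and the other 6 animals above it. With the same start, chr1:278679022-278731755 (average CV 0.661) was low in the same animals, with sham 1 at 0.801 RPM and mTBI 1 at 0.735 RPM, against 2.59 to 7.03 RPM in the others. The third with this start, chr1:278679022-278701866 (average CV 0.530), was at 0.633 and 0.645 RPM in those animals against 1.44 to 3.22 RPM.

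Between the last and the first 2 of these in mean level was chr20:50659751-50687868 (plus strand, average CV 0.755), at 2.11, 4.27, 1.59 and 1.57 RPM in the sham animals and 1.94, 1.16, 1.24 and 6.81 RPM in the injured ones. Here sham 2 and mTBI 4 were high. The plus-strand chr16:63322919-63324410 (average CV 0.764), which made up 98.6% of a locus of 2 circRNAs, was at 0.556, 1.18, 2.99 and 2.13 RPM in the sham animals and 0.671, 0.502, 1.32 and 3.40 RPM in the injured ones, with no large step between neighbouring values. The minus-strand chr2:206534104-206536360 (average CV 0.497) ranged from 0.932 RPM in sham 3 to 3.69 RPM in sham 4, and from 1.26 to 3.02 RPM in the injured ones.

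In span, the distance between the joined ends on the genome, the variable circRNAs were like the rest. Their median was 11273 bases (interval of the median 9883 to 12602), with quartiles of 4618 and 26060, against a median of 11422 in the other abundant circRNAs. Up to 1000 bases were spanned by 40 of them (6.78%, against 7.81% of the others), and more than 50000 by 58 (9.83%, against 8.47%). The longest, chr18:23881264-23979930 (minus strand), spanned 98667 bases and stood at 0.0517 to 0.183 RPM in the sham animals and 0.0515 to 0.287 RPM in the injured ones. The shortest after the chromosome X circRNA, chr8:123230580-123230790 (plus strand, 211 bases), stood at 0.0517 to 0.210 RPM in the sham animals and 0.0779 to 0.208 RPM in the injured ones. Among the 37 with a mean of at least 0.52 RPM, 8 (21.6%) spanned up to 1000 bases, against 149 of the 1739 others at that level (8.57%).

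Most of the variable circRNAs shared a splice site with another circRNA of the table. A start was shared by 431 of the 590 (73.1%, against 78.6% of the others) and an end by 434 (73.6%, against 78.5%). Either end was shared by 542 (91.9%, Wilson 95% interval 89.4 to 93.8%), against 94.0% of the others, and 48 (8.14%) shared neither, against 5.95%. These shares are not matched on level. At 0.13 to 0.26 RPM, where 474 of the 590 lie, either end was shared by 92.2% against 92.9% of the others. The shares were 88.6% against 93.8% at 0.26 to 0.52 RPM, 95.8% against 95.4% at 0.52 to 1.04 RPM and 92.3% against 95.9% above that. The 590 fell in 526 loci, of which 475 held 1, 42 held 2, 6 held 3, 2 held 4 and 1 held 5 of them. A variable circRNA gave a median of 24.7% of its locus, against 31.8% for the others. These medians are not matched on level, which was lower in the variable circRNAs. The variable circRNAs lay on the plus strand in 51.7% of cases and on the X chromosome in 8 (1.36%, against 2.09% of the others).

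The rest of each locus, meaning its other circRNAs summed, was not itself ranked by the rule. In loci that held several of the 590, however, the rest includes other circRNAs that the rule chose for wide spread. The comparisons of the rest below are therefore not free of the rule and are given as a description. For 424 of the 590 the other circRNAs of the locus summed to a mean of at least 0.13 RPM and to more than 0 in every library. In these, the rest of the locus had a median average CV of 0.191, against 0.150 in the loci of the other abundant circRNAs. The variable circRNAs in these loci had a median of 0.518 themselves, which is what chose them, so the gap to their locus was fixed by the rule and supports nothing. The rest of the locus was under a CV of 0.2 in 228 of the 424 (53.8%), against 65.8% for the other abundant circRNAs.

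The locus with the most variable circRNAs, 5 of its 12 abundant ones, was chr5:129397855-129528945 (plus strand, 23 circRNAs in all). Of the 5, 3 start at 129448885 and were high in sham 1. The one that ends at 129491380 stood at 4.52, 0.616, 0.854 and 1.12 RPM in the sham animals and 1.02, 0.617, 0.651 and 0.701 RPM in the injured ones. The one that ends at 129475869 was at 1.37 RPM in sham 1 and 0.13 to 0.311 RPM elsewhere. Another circRNA with that start, ending at 129457884, ranged only from 0.750 to 1.49 RPM, with an average CV of 0.269. The whole locus held 14.5 RPM in sham 1 and 5.03 to 7.27 RPM in the other animals.

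Of the 6 loci with 3 variable circRNAs, the one in which these had the highest summed level is chr20:50659751-50783335 (plus strand, 46 circRNAs, 6 of them abundant). Its 3 variable circRNAs all start at 50659751. Those that end at 50676469, 50687868 and 50699734 stood at 0.727, 6.81 and 1.91 RPM in mTBI 4, their highest animal, and at 0.485, 4.27 and 1.06 RPM in sham 2, the second highest. The circRNA chr20:50676394-50699734, which shares only an end with one of them, stayed between 0.284 and 0.569 RPM (average CV 0.203). The locus total was 12.4 RPM in mTBI 4 and 8.97 RPM in sham 2, against 4.54 to 6.03 RPM in the other animals.

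The chromosome 1 locus, chr1:278562577-278777648 (plus strand), held 67 circRNAs, of which 17 were abundant and 4 variable. Of these, 3 are those described above, and the other, chr1:278656261-278731755, ran the other way, at 0.995, 0.721, 0.168 and 0.606 RPM in the sham animals and 0.929, 0.283, 0.195 and 0.221 RPM in the injured ones. It was highest in sham 1 and mTBI 1, the animals in which the other 3 were lowest. The locus total ranged from 37.3 RPM in mTBI 1 to 73.1 RPM in mTBI 4. The last locus, chr7:110086741-110186324 (plus strand, 30 circRNAs, 11 of them abundant), held 4 variable ones, of which chr7:110116810-110142633 had the widest range, at 0.142, 0.433, 0.453 and 0.928 RPM in the sham animals and 0.0258, 0.707, 0.612 and 0.753 RPM in the injured ones.

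**Figure D3:**
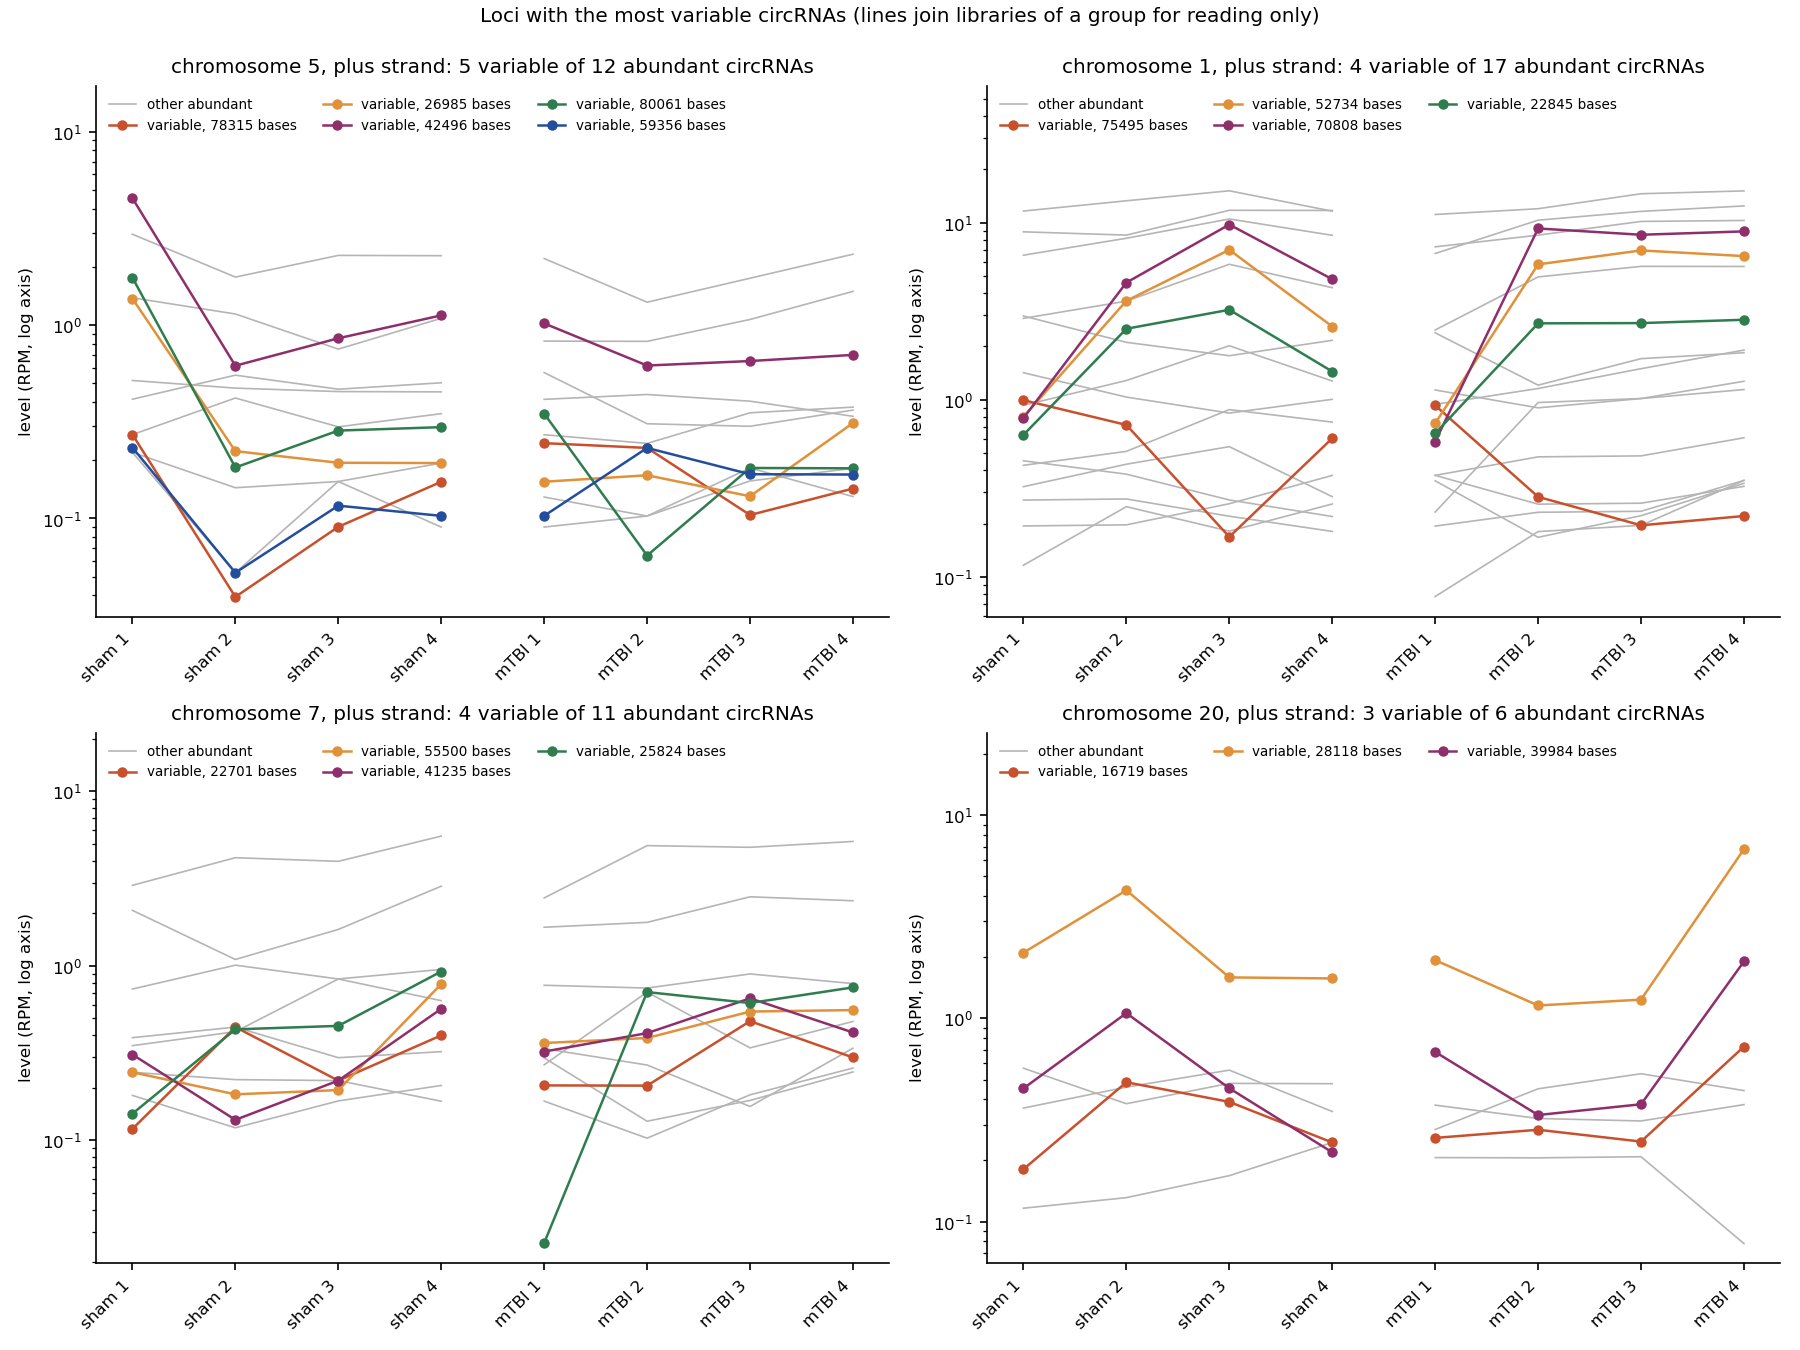
RPM per library (vertical axis, log scale) of the abundant circRNAs of the 4 loci with the most variable circRNAs (a tie among loci with 3 was broken by their summed level), with the variable ones in colour and the others in grey. Lines join the points of 1 circRNA only to make it easy to follow, since the libraries have no order. In the chromosome 5 locus, 3 circRNAs with a common start peak in sham 1, and in the chromosome 1 locus, 3 fall together in sham 1 and mTBI 1 while another is highest there.

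Whether such neighbours moved together was measured as Pearson's r of log2(RPM + 0.0259) over the 8 libraries, for every pair of abundant circRNAs that share an exact end. The circRNAs of a pair share a splice site and the depth of each library. Of 3504 such pairs, 491 held a variable circRNA. These involved 294 of the 590, and the other 296 had no abundant end-sharing neighbour. No pair passed an adjusted p of 0.05 (exact permutation of pairings, two-sided, Benjamini-Hochberg over 3504 pairs, 0% of all pairs called). The smallest p that 40320 pairings allow is 2.48e-05, and a single pair at that p would be adjusted to 0.0869, so 8 libraries could bring a pair past the threshold only if several reached such values together. At an unadjusted p under 0.05 by the same exact permutation test there were 72 of the 491 pairs (14.7%) and 242 of the 3013 pairs with no variable circRNA (8.03%).

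Pairs of 2 variable circRNAs had the highest r, with a median of 0.386 over 45 pairs, of which 16 (35.6%) were at an unadjusted exact permutation p under 0.05. Some pairs hold the same circRNA, as do those on chromosome 1 described below, so the pairs counted are not independent of one another. Pairs with 1 variable circRNA had a median r of 0.156 over 446 pairs, and pairs with none 0.135. Positive r made up 65.4% of the 491 pairs and 62.6% of the 3013. The highest library stood a median of 5.52-fold over the lowest in the variable circRNAs and 2.26-fold in the others, and the part of this wider range in r was not tested.

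The highest r of all 491, 0.986, joined chr2:32632863-32693290 (minus strand) to chr2:32632863-32636300, a circRNA with the same start that is not among the 590 (exact permutation p = 0.000124, adjusted p = 0.0869; Spearman's rho 0.976, exact permutation p = 0.000397). The first stood at 0.401, 0.393, 0.828 and 1.22 RPM in the sham animals and 0.568, 0.283, 0.625 and 0.895 RPM in the injured ones. The second was far more abundant, at 12.1, 12.1, 22.9 and 30.4 RPM in the sham animals and 17.8, 11.0, 17.8 and 22.0 RPM in the injured ones. Both were highest in sham 4 and lowest in mTBI 2. Without the 2 libraries farthest from the median of the first, r was 0.982.

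The other 3 of the highest were the pairs among the 3 chromosome 1 circRNAs that start at 278679022. The r between the circRNAs that end at 278749829 and 278731755 was 0.985 (exact permutation p = 0.00104, adjusted p = 0.160; rho 0.881, exact permutation p = 0.00724). It was 0.932 without the 2 farthest libraries. For the ends 278731755 and 278701866 r was 0.985 (exact permutation p = 0.000298, adjusted p = 0.111; rho 0.952, exact permutation p = 0.00114), and 0.891 without the 2 farthest libraries. For the ends 278749829 and 278701866 r was 0.968 (exact permutation p = 0.00149, adjusted p = 0.174; rho 0.881, exact permutation p = 0.00724), and 0.736 without them. The 2 low animals, sham 1 and mTBI 1, thus carried part of this last relation.

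The lowest r belonged to the same locus. Between chr1:278656261-278731755 and chr1:278698312-278731755, which share an end, r was -0.949 (exact permutation p = 0.000174, adjusted p = 0.0869; rho -0.976, exact permutation p = 0.000397), and -0.927 without the 2 farthest libraries. The second circRNA, not among the 590, stood at 2.88, 3.60, 5.82 and 4.29 RPM in the sham animals and 2.48, 4.94, 5.67 and 5.66 RPM in the injured ones. With the variable chr1:278679022-278731755, the first had an r of -0.906 (exact permutation p = 0.000719, adjusted p = 0.148; rho -0.952, exact permutation p = 0.00114), and -0.870 without the 2 farthest libraries. So among the 3 abundant circRNAs with the end 278731755, the one with the most upstream start was high where the other 2 were low. In all, 10 circRNAs of the table share that end, and the rest were not compared.

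Negative r was also found on the minus strand of chromosome 2 between chr2:89095142-89190947 and chr2:89095142-89127483 (r = -0.849, exact permutation p = 0.0135, adjusted p = 0.381; rho -0.762, exact permutation p = 0.0368), and it was -0.858 without the 2 farthest libraries. The first ranged from 0.103 to 0.352 RPM and the second from 0.0655 to 0.219 RPM, so both were thin in reads. On chromosome 1, chr1:154405931-154411147 and chr1:154405931-154447475 (plus strand) had an r of -0.838 (exact permutation p = 0.0142, adjusted p = 0.384; rho -0.714, exact permutation p = 0.0576), which fell to -0.654 without the 2 farthest libraries.

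**Figure D4:**
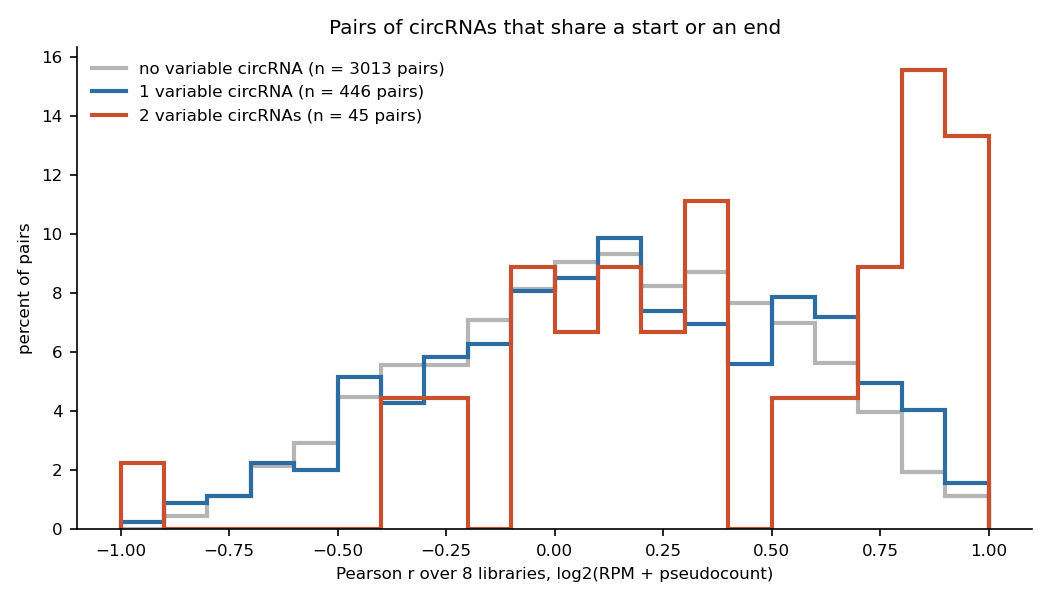
Distribution of Pearson's r over 8 libraries (horizontal axis) for end-sharing pairs of abundant circRNAs, as the share of pairs in percent (vertical axis), for pairs with 2, 1 or no variable circRNA. Pairs of 2 variable circRNAs lie farthest to the right, with a median of 0.386 against 0.156 and 0.135.

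The next comparison asked whether the spread itself differed between injured and sham cortex. The median CV of the 590 was 0.543 in sham and 0.523 in mTBI, and 279 (47.3%) had the larger CV in mTBI, against 51.7% of the other abundant circRNAs. Absolute deviations of log2(RPM + 0.0259) from the group mean were compared between groups with limma across all 20174 circRNAs tested. None of the 590 passed an adjusted p of 0.05, where 0.0198% of all circRNAs tested did, and 50 (8.47%) were at an unadjusted p under 0.05, against 11.4% of all. With 4 animals a group this test can detect little, and a count of 0 does not show that the spreads were equal.

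The smallest p was that of chr7:10698747-10699816 (minus strand), at 1.73, 0.131, 0.0388 and 1.48 RPM in the sham animals and 0.142, 0.0643, 0.143 and 0.117 RPM in the injured ones (limma on deviations, adjusted p = 0.0767). Sham 1 and sham 4 were high and the other 6 animals were low, so the spread was wider in sham. Also wider in sham were chr6:69939345-69945224 (minus strand, 0.0516 to 0.310 RPM in the sham animals and 0.156 to 0.270 RPM in the injured ones, adjusted p = 0.194) and chr7:35963371-35978907 (minus strand, adjusted p = 0.240), neither past the threshold of limma. The smallest p on the other side was that of chr8:102318891-102351960 (plus strand), at 0.220, 0.236, 0.168 and 0.142 RPM in the sham animals and 0.0645, 0.0257, 0.248 and 0.247 RPM in the injured ones (limma on deviations, adjusted p = 0.183). Next came chr16:16036021-16072585 (minus strand, adjusted p = 0.194) and chr13:7395183-7464039 (plus strand, adjusted p = 0.197), each low in mTBI 1 and mTBI 4.

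The spread in one group could also be read in the animals of the other. The 590 abundant circRNAs with the highest CV in sham and the 590 with the highest CV in mTBI had 144 in common (24.4% of each). The median mTBI CV of those chosen in sham was 0.369, against 0.267 over all abundant circRNAs, and the median sham CV of those chosen in mTBI was 0.354, against 0.26. At a mean of at least 0.52 RPM, the 177 widest of each group had 65 in common (36.7%). Counting error makes the CV larger at low levels in either group. With the variance divided by the mean in place of the CV, the lists of 590 had 190 in common (32.2%). At an equal CV that ratio grows with the level, so the level enters both measures.

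The last comparison was of the levels themselves between injured and sham cortex. None of the 590 passed an adjusted p of 0.05 in limma on log2(RPM + 0.0259), where 0.0248% of all circRNAs tested did, and the smallest adjusted p among them was 0.110. By limma, 42 (7.12%) were at an unadjusted p under 0.05, against 4.68% of all. In mTBI 305 were higher and 285 lower, with a median log2 change of 0.02 against -0.02 over all circRNAs tested. The changes ran from -1.61 to 1.63, with a median SE of 0.408 against 0.285 in the other abundant circRNAs. Only 2 had groups that did not overlap (0.339%), where 2.81% of all circRNAs tested had, and both were lower in mTBI. The rule chose on the spread within groups, which also enters the SE, the p and the overlap of the groups, and nothing about the injury is read from these counts.

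The smallest p for a higher level was that of chr1:221185801-221186464 (minus strand, 664 bases). It stood at 0.181, 0.118, 0.272 and 0.825 RPM in the sham animals and at 0.581, 1.30, 0.756 and 1.09 RPM in the injured ones. Sham 4 lay within the mTBI range and the other sham animals below it. The log2 change was 1.63 (SE 0.35, limma adjusted p = 0.110). The next 3 were thin in reads: chr9:71957021-71958386 (plus strand) was at 0.103 ± 0.104 RPM in the sham animals and 0.269 ± 0.0951 RPM in the injured ones (SD over 4 animals each, adjusted p of limma = 0.711). The minus-strand chr6:69939763-69945224 (limma adjusted p = 0.822) and the plus-strand chr9:50898458-50906966 (limma adjusted p = 0.846) followed, with log2 changes of 1.26 and 1.35.

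On the lower side, chr13:83256698-83257043 (minus strand, 346 bases) stood at 2.66, 0.852, 0.505 and 2.98 RPM in the sham animals and at 0.310, 0.373, 0.860 and 0.337 RPM in the injured ones. Sham 1 and sham 4 were high, and mTBI 3 lay among the sham values. The log2 change was -1.61 (SE 0.36, limma adjusted p = 0.167). A variable circRNA that shares its end, chr13:83256334-83257043, stood at 0.577 to 0.735 RPM in the sham animals and was at 0.297, 0.206, 1.02 and 0.298 RPM in the injured ones, again highest in mTBI 3 within its group.

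The plus-strand chr18:24611733-24620738 stood at 0.465, 0.367, 0.776 and 0.529 RPM in the sham animals and at 0.0774, 0.36, 0.117 and 0.298 RPM in the injured ones. Its groups did not overlap, with mTBI 2 just under sham 2, and the log2 change was -1.38 (SE 0.34, limma adjusted p = 0.349). With the same start, chr18:24611733-24614740 was at 0.262 to 0.789 RPM in the sham animals and 0.0903, 0.476, 0.0912 and 0.363 RPM in the injured ones. The other with separate groups was chr5:105595876-105634744 (plus strand), at 0.116, 0.157, 0.220 and 0.361 RPM in the sham animals and 0.0516, 0.103, 0.0261 and 0.0908 RPM in the injured ones (limma adjusted p = 0.800).

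The minus-strand chr2:25924932-25927179 was at 0.711, 0.210, 0.750 and 1.42 RPM in the sham animals and 0.232, 0.347, 0.221 and 0.169 RPM in the injured ones, with sham 2 among the mTBI values (log2 change -1.35, SE 0.35, limma adjusted p = 0.412). The minus-strand chr4:64265934-64270334, which shares no end with another circRNA, was at 3.01, 2.33, 1.88 and 0.838 RPM in the sham animals and 0.955, 0.733, 0.651 and 1.66 RPM in the injured ones (log2 change -0.95, SE 0.27, limma adjusted p = 0.655). Here sham 4 was low in its group and mTBI 4 high in its own. None of these 8 changes passed the adjusted limma test.

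None of these changes was called with all 8 libraries, and each one below passed in only 1 of the 8 fits that left a library out. Each time the animal left out was the sham one closest to the mTBI mean, and without it the change was larger. Without sham 4 the chr1:221185801-221186464 change passed at a limma adjusted p of 0.000912, and chr4:64265934-64270334 at 0.0191 (7 of 18509 called over all circRNAs tested). With any other library left out, chr1:221185801-221186464 was at a limma adjusted p of 0.147 to 0.639. Without sham 3 the chr13:83256698-83257043 change passed at 0.00197 (9 of 18443 over all), and without sham 2 the chr2:25924932-25927179 change passed at 0.00541 (5 of 18674 over all).

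**Figure D5:**
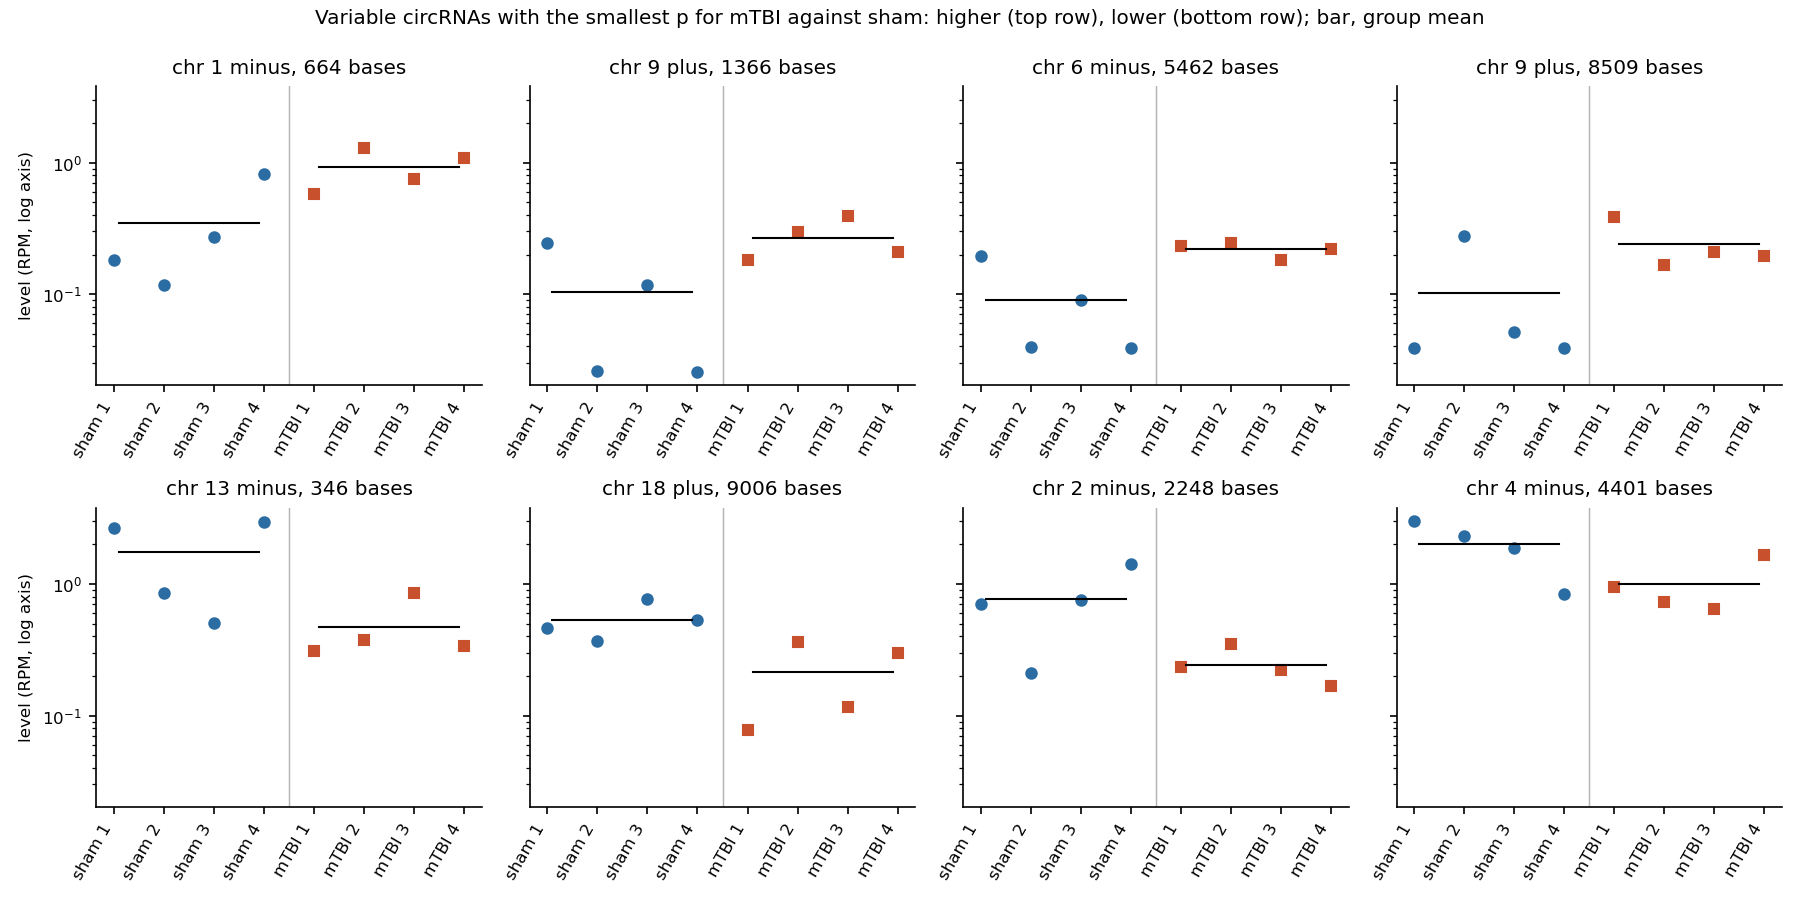
RPM (vertical axis, log scale) in each library of the variable circRNAs with the smallest limma p for mTBI against sham, 4 with a higher level in the top row and 4 with a lower level in the bottom row, with sham as circles, mTBI as squares and a bar at each group mean. The groups are separate in 1 of the 8, chr18:24611733-24620738, and none passed the adjusted threshold.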

How the data were processed

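The authors deposited 1 table of RPM values, with chromosome, start, end and strand of each circRNA and 1 column for each of 8 libraries. Columns headed Con were read as the sham samples. Trimmomatic 0.36, DESeq and the build Rnor 6.0 are named in the submitters' processing notes. An aligner, a circRNA caller and the base of the positions, 0 or 1, were not given in the sources used here. RPM values of each library were whole multiples, within 0.01 read, of its smallest listed value divided by 2. The smallest value was therefore taken as 2 reads wherever reads are mentioned, which the values allow but do not prove. Read-based intervals and limits cover counting error only.

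The labels describe 8 separate cortex samples, and p-values measure the spread between these. circRNAs listed in at least 4 libraries (20174) entered the fit, made with limma 3.58.1 under R 4.3.3 (lmFit, eBayes with trend) on log2(RPM + 0.0259), two-sided, with Benjamini-Hochberg adjustment over all of them. The pseudocount is the median of the libraries' smallest values, and it makes changes of low circRNAs look smaller. Spread was compared by the same fit on absolute deviations from the group mean. Pairs were tested by exact permutation of the 8 libraries. Functions were tested on simulated data. Python 3.11.15 with numpy 2.4.6, pandas 2.3.3, scipy 1.17.1 and networkx 3.6.1 handled the tables, and matplotlib 3.10.9 drew them.

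The circRNAs named were the 8 with the highest average CV, the 6 with the highest mean, 4 per direction by p of the group difference and 3 per direction by p of the spread difference. They also include the 4 highest and 4 lowest r, the 4 loci with the most variable circRNAs (ties by summed level), 2 on each side of the CV bound, and the 2 shortest and 2 longest. Neighbours of these in the same locus are given beside them. chr2:224802843-224803455 and chr10:27347096-27363531, with large steps, and chr5:105595876-105634744, with separate groups, were named after their values were seen. The members and these lists were chosen with earlier results of these data known. Alternatives covered the pseudocount, filter, scaling, variance model, reads, choice of members, replicate number and each library left out. Host genes and sequences are not reported, since no genome of the build was used here.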

Additional observations from a re-analysis of the deposited data

Results flagged for a closer look

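A sample was singled out when its gap to the nearest of the other 3 of its group, divided by the range of the group, exceeded Dixon's 95% critical value for 4 samples. Chance gives about 1 in 20 groups, and 14 of the 72 groups of named results passed. Most of these were named for their wide spread, so the flags repeat that choice. Over all 590 circRNAs 85 of 1180 groups passed (7.20%), against 577 of 10622 (5.43%) in the other abundant circRNAs.

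In sham, chr1:195833189-195843637 stood at 1.02 RPM in sham 2 (ratio 0.934), chr7:27119420-27120135 at 0.388 RPM in sham 1 (0.834) and chr5:129448885-129528945 at 1.76 RPM in sham 1 (0.928). The total of the latter's locus was 14.5 RPM in sham 1 against 5.91 to 7.27 RPM (0.842). For chr9:50898458-50906966 sham 2 was at 0.275 RPM against 0.0387 to 0.0518 RPM (0.945).

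In mTBI, mTBI 4 was the highest for chr5:90040536-90063651 at 1.58 RPM (0.912), chr5:101695303-101697843 at 2.85 RPM (0.949) and chr20:50659751-50687868 at 6.81 RPM (0.862), and for the chromosome 20 locus total at 12.4 RPM against 4.54 to 5.24 RPM (0.911). The lowest was mTBI 1 for chr1:278679022-278749829, at 0.581 RPM against 8.55 to 9.27 RPM (0.916), and for chr1:278679022-278701866, at 0.645 RPM against 2.70 to 2.83 RPM (0.942). For chr13:83256698-83257043 mTBI 3 was at 0.860 RPM against 0.310 to 0.373 RPM (0.885), and for chr18:23881264-23979930 mTBI 2 was at 0.0515 RPM against 0.271 to 0.287 RPM (0.933).

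Among library measures, sham 2 listed 21508 circRNAs against 22806 to 23069 in the other sham libraries (0.832).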

How the results depend on the processing

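Which circRNAs are chosen depends on the measure. The 5% and 20% choices nest with the 590, scaling to equal totals shared 512 (86.8%), leaving out 1 library shared 408 to 440, and variance over mean in reads shared 187 (31.7%). At a mean of at least 0.52 RPM the choice held 177 circRNAs, of which 37 are among the 590. The share with a shared end was 95.5% at a mean of at least 0.52 RPM and 94.1% by variance over mean. Span medians stayed within 10174.5 to 12021 bases. The share wider in mTBI ran from 42.0%, without mTBI 4, to 52.4%, without sham 1.

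The count past the limma threshold for a group difference, 0, was 2 with 4 times the pseudocount (10 of 20174 over all circRNAs tested), 7 with no filter (55 of 51995), 1 with median centring (9 of 20174), 3 with robust shrinkage (23 of 20174), 1 with the 20% choice and 0 to 2 without 1 library (2 to 9 over all). chr1:221185801-221186464 passed limma with 4 times the pseudocount (adjusted p = 0.0254), centring (0.0497) and robust shrinkage (0.000843), chr13:83256698-83257043 with 4 times the pseudocount (0.0330), and chr18:24611733-24620738 (0.00418) and chr2:25924932-25927179 (0.00207) with robust shrinkage. Limma voom on reads called 0 (8 over all). The count for spread, 0, was 1 with 0.5 times the pseudocount (135 of 20174 over all) and 1 without trend (159 of 20174), both chr7:10698747-10699816 (limma adjusted p = 0.0487 and 0.0318). It was 29 with no filter, where 25527 of 51995 were called over all, and 0 to 1 without 1 library (16 to 34 over all; chr5:101695303-101697843, limma adjusted p = 0.0252 without mTBI 1 and 0.0482 without mTBI 3). With no filter, rows mostly at 0 enter the fit. No named change reversed. Over all named changes, pairs and average CVs, 273 alternative values counted as the same, 15 came past the threshold and 16 moved. For a change or an r, the same means the same sign and side of the threshold. An average CV has neither, and counted as the same within the difference of its 2 group CVs divided by the square root of 2. This bound is loose where the groups differ, so chr5:101695303-101697843 at 0.453 without mTBI 4 counted as the same. All 16 that moved were average CVs.

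At a mean of at least 0.52 RPM the list was chosen anew, as 177 circRNAs. Of the 86 pairs that held any of these, 5 passed the threshold, and of the 555 pairs with none of them 4 passed. The adjustment ran over the pairs at this level alone in place of all 3504, which by itself makes a smaller adjusted p possible. Of the 86, 36.0% were at an unadjusted exact permutation p under 0.05, against 13.5% of the 555, and 74.4% had r above 0, against 70.5%. The unadjusted share was 11.5% for all pairs of a locus (59.0% with r above 0), 11.0% for Spearman's rho and 11.5% for the 20% choice, against 7.29%, 7.20% and 7.91% in the other pairs.

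Deviations of same-numbered samples had correlations of -0.0146 to 0.0218, against -0.0349 to 0.0520 for samples of different number. The labels do not say what the numbers mean, and these correlations cannot show that no pairing existed. The numbers were used here only to name samples. With the replicate block, 0 of the 590 were called for group difference and 0 for spread by limma. A count test (edgeR) was not run, since the values are RPM. With a mean of 13.3 reads in the median case, depth limits most single circRNAs.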
